A study of Mus musculus with 6 samples.

Results

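Adrenergic receptors are the cell-surface proteins through which noradrenaline and adrenaline act on fat cells. The 8 genes described here are the alpha receptor genes and a pair of beta receptor genes, namely Adrb1, Adrb3, Adra1a, Adra1b, Adra1d, Adra2a, Adra2b and Adra2c, picked by symbol from a count table of 20295 genes, and each was found once. A further beta receptor gene of the count table was not analysed here, so beta sums cover Adrb1 and Adrb3 only, and ranks, shares and totals hold among these 8 genes. RNA was sequenced from 3 kinds of primary adipocyte culture: 2 libraries from brown adipose tissue (BAT), 2 from inguinal white fat (iWAT) and 2 from epididymal white fat (eWAT). Donors were male NMRI mice, 4 to 5 weeks old, and the brown cells were drawn together from interscapular, cervical and axillary fat. Stromal-vascular cells are the mixed cells of collagenase-digested fat that are left once mature fat cells are removed. In all groups they were differentiated in the presence of rosiglitazone at 1 µM, an agonist of the adipogenic receptor Pparg. Insulin was at 30 nM and newborn calf serum at 10%. Harvest was 8 days after plating, although the column names carry a day 7 tag, and cultures at or below 50% differentiation were not used. The labels name no adrenergic agonist, so levels are those of cultures without a stated stimulus. They do not say that replicates came from separate animals or cultures, so a p-value reflects no more than how far these samples differ, and that may be technical.

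The receptor classes signal in different ways. Beta receptors couple to the G protein Gs, which switches on adenylyl cyclase, raises cAMP and activates protein kinase A, the route to lipolysis in fat and to heat production in brown fat. Alpha-2 receptors couple to Gi and lower cAMP, and alpha-1 receptors couple to Gq, which releases calcium through phospholipase C. The beta-3 receptor encoded by Adrb3 is the beta receptor most closely tied to adipocytes in rodents.

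Library totals ran from 2889038 to 4807449 counts, and levels are given as CPM, the count scaled to a library of 1000000. Where a gene had a count of 0, up to 3 counts are allowed for, which came to between 0.634 and 1.15 CPM depending on the library. Of the 8 genes, 5 had enough counts to be tested in the main edgeR fit (Adrb3, Adrb1, Adra1a, Adra1b and Adra1d), and the 3 alpha-2 genes did not. Adipocyte markers were high in every library and brown markers were highest in BAT: the summed level of 8 adipocyte markers ran from 31038 to 52992 CPM over the libraries with none at 0, and that of 8 brown adipocyte markers was 5898 and 10965 CPM in BAT, 1841 and 1757 CPM in iWAT and 399 and 547 CPM in eWAT, where Zic1 had no counts. Markers of other cells were present as well. The summed level of 13 macrophage markers was 450.3 and 94.8 CPM in BAT, 661 and 191 CPM in iWAT and 4891 and 2183 CPM in eWAT. Of these 13, edgeR called 6 lower in BAT than in eWAT, beside 3.75% of all genes. The summed level of 9 preadipocyte and fibroblast markers was 828 and 553 CPM in BAT, 5367 and 4005 CPM in iWAT and 4152 and 3486 CPM in eWAT. Of 8 tested, edgeR called 3 lower and 1 higher in BAT than in eWAT, beside 3.75% and 2.71% of all genes. Against iWAT it called 3 of the 8 lower in BAT and 0 higher, beside 1.04% of all genes in either direction. The sum of 9 smooth muscle and pericyte markers was 1830 and 267 CPM in BAT, 898 and 255 CPM in iWAT and 1197 and 422 CPM in eWAT. It was higher in replicate 1 of each depot, as were the macrophage sum and the preadipocyte and fibroblast sum. The sum of 8 endothelial markers ran from 67.8 to 223 CPM. No marker of these 4 lists was at 0 in both libraries of a depot.

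Adrb3 was the most abundant of the 8 genes in every library, and its level was highest in eWAT. The gene (NM_013462) lies on chromosome 8 of mm9 from 28336248 to 28340060 on the minus strand, and reads were counted over 2795 of its 3813 bases. Its level was 84.1 and 86.4 CPM in the BAT libraries (398 and 226 counts), 53.6 and 63.6 CPM in the iWAT libraries (223 and 253 counts) and 154 and 172 CPM in the eWAT libraries (663 and 604 counts). All 3 depots were separated, in the order eWAT, BAT and iWAT, with no overlap between any pair. Among all 20295 genes ranked by CPM per kilobase of counted length, Adrb3 stood at rank 2483 and 2541 in BAT, 3682 and 3208 in iWAT and 1317 and 1162 in eWAT. Brown cultures, whose cells are known for beta-3 receptor signalling to Ucp1, thus held a mean of 85.3 ± 1.63 CPM (SD, n = 2) of Adrb3, against 163 ± 12.3 CPM in eWAT cultures. In bulk cultures, fewer cells of a type and less RNA per cell cannot be told apart.

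Adrb1 encodes the beta-1 receptor, best known from the heart and also present on brown adipocytes and their precursors. Its gene (NM_007419) has a single exon of 2491 bases on mm9 chromosome 19 from 56796862 to 56799352. Its level was 10.4 and 7.26 CPM in BAT (49 and 19 counts), 4.81 and 1.26 CPM in iWAT (20 and 5 counts) and 0.932 and 2.56 CPM in eWAT (4 and 9 counts). Both BAT libraries lay above all others, and the iWAT and eWAT libraries overlapped. Depot means were 8.81 ± 2.19 CPM in BAT, 3.03 ± 2.51 CPM in iWAT and 1.75 ± 1.15 CPM in eWAT (SD, n = 2 each), so the order of the white depots did not exceed their spread.

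Alpha-1 receptor genes followed 3 different depot patterns. Adra1a (NM_001271761, mm9 chromosome 14, 67254088 to 67390005, plus strand) encodes the alpha-1A receptor. It had 16.7 and 17.6 CPM in BAT (79 and 46 counts), 10.6 and 13.8 CPM in iWAT (44 and 55 counts) and 5.36 and 3.98 CPM in eWAT (23 and 14 counts). Levels were thus separated in the order BAT, iWAT and eWAT.
Adra1b (NM_001284381, mm9 chromosome 11, 43588107 to 43714739, minus strand) encodes the alpha-1B receptor. It had 2.32 and 1.91 CPM in BAT (11 and 5 counts), 0.241 and 0.503 CPM in iWAT (1 and 2 counts) and 11.2 and 5.97 CPM in eWAT (48 and 21 counts). The depots did not overlap, and the order eWAT, BAT and iWAT was that of Adrb3. Each iWAT library was below the level that a count of 3 corresponds to, 0.722 and 0.754 CPM.
Adra1d (NM_013460, mm9 chromosome 2, 131371093 to 131388021, minus strand) encodes the alpha-1D receptor. It had 6.97 and 14.1 CPM in BAT (33 and 37 counts), 7.70 and 8.30 CPM in iWAT (32 and 33 counts) and 10.9 and 6.26 CPM in eWAT (47 and 22 counts). The libraries of all depots overlapped, with means of 10.6 ± 5.07, 8.00 ± 0.423 and 8.60 ± 3.32 CPM in BAT, iWAT and eWAT (SD, n = 2 each).

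Promoter sequences were found in the RefSeq table (build GRCm38.p6) for 5 of the 8 genes, and not for Adrb3, Adra1a and Adra1d. Those of Adrb1 and Adra1b are shown because these 2 genes were highest in different depots, Adrb1 in BAT and Adra1b in eWAT. Both were higher in the BAT libraries than in the iWAT libraries. The main edgeR fit called neither gene in any comparison of depots. Each run covers the 250 bases before an annotated start, 5′ to 3′ on the gene's strand. Capitals mark matches on either strand to 4 motifs that were searched: TGACG, the half-site of the cAMP response element, CCCNNGGG, the core bound by EBF factors of adipocytes, the nuclear receptor half-site AGGTCA, and the TATA box TATAAA.
Adrb1 (chr19:56721867-56722116, plus strand): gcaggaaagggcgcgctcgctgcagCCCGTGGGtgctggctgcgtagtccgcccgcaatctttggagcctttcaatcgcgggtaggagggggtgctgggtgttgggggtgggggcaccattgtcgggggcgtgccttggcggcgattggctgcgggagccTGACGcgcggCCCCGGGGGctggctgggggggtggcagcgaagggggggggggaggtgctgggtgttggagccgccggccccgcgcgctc
Adra1b, distal start (chr11:43901238-43901487, minus strand): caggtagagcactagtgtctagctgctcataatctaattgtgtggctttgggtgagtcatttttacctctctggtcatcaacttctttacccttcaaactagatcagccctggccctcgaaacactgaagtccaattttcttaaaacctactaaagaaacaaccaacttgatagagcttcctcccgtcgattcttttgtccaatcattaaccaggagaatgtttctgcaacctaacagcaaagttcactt
Adra1b, proximal start (chr11:43836490-43836739, minus strand): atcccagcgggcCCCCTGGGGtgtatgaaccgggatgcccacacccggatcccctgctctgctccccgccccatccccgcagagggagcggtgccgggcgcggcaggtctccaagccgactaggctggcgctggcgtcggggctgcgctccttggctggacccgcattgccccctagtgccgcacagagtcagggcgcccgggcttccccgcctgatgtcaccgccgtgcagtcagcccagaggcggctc
The Adrb1 run held 1 TGACG match and 3 matches to CCCNNGGG, 2 of them overlapping, and had 74% G and C. The distal Adra1b run held no match to any of the 4 motifs and had 41.6% G and C, whereas the proximal run, 64748 bases away, held 2 overlapping matches to CCCNNGGG and had 72.8%. Over 32851 promoters of this length, 17.8% held TGACG, 11.8% held CCCNNGGG, 14.0% held AGGTCA and 12.4% held TATAAA. The transcript counted for Adra1b spans 126633 bases in mm9, close to the 126646 bases of the whole RefSeq gene, and the counts do not separate the starts. For Adrb1 the counted transcript spans 2491 bases in mm9, against 3034 bases of the RefSeq gene. Whether the Adrb1 run precedes the start of the counted transcript was therefore not settled, and its levels per kilobase use the shorter length.

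Alpha-2 receptor genes, whose products restrain lipolysis in human fat, were at or near the limit of detection. Adra2a (NM_007417, mm9 chromosome 19, 54119672 to 54123472) had 7 and 0 counts in BAT, 7 and 3 in iWAT and 1 and 1 in eWAT. The pooled ratio of iWAT to eWAT for Adra2a was 4.80 (exact 95% binomial interval 1.02 to 45.0), and that of BAT to eWAT was 3.72 (0.708 to 36.7). These intervals hold counting error only, and the main edgeR fit left the gene out for low counts. With no filter edgeR did not call it in any comparison. The authors' deposited table gives it an adjusted p of 0.163 for iWAT against eWAT and 0.352 for BAT against eWAT. Adra2b (NM_009633, mm9 chromosome 2, 127189022 to 127192957) had 2 counts in eWAT replicate 1 and 0 in the other libraries. Adra2c (NM_007418, mm9 chromosome 5, 35621215 to 35624412) had 0 counts in all 6 libraries, which allows up to 0.634 CPM in the deepest library and 1.15 CPM in the shallowest.

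**Figure D1:**
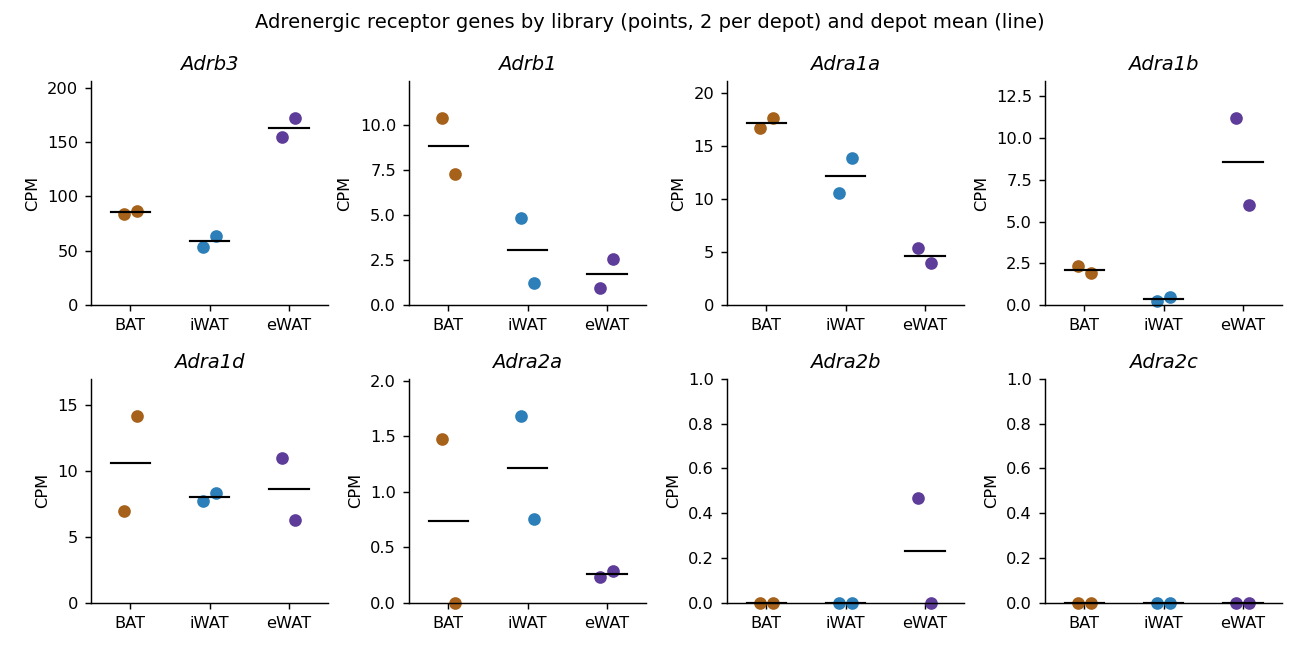
Level of each of the 8 receptor genes in CPM (vertical axis, linear, a separate scale per gene) in the 2 libraries of BAT, iWAT and eWAT, as points, with the depot mean as a line. Adrb3 and Adra1b are highest in eWAT, Adrb1 and Adra1a in BAT, Adra1d overlaps between depots, and the alpha-2 genes stay below 2 CPM.

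The comparison of BAT with eWAT asked how receptor expression in brown cultures differs from that in epididymal cultures. Adra1a rose and Adrb3 fell in BAT. Adra1a averaged 17.1 ± 0.632 CPM in BAT and 4.67 ± 0.973 CPM in eWAT (SD, n = 2 each), a 3.63-fold difference or 1.86 ± 0.32 on the log2 scale (SE; edgeR quasi-likelihood test, adjusted p = 0.0317). Adrb3 had a log2 fold change of -0.94 ± 0.17 (edgeR adjusted p = 0.0362). Adrb1 was higher in both BAT libraries, with a log2 fold change of 2.37 ± 0.74, but did not pass (edgeR adjusted p = 0.108). It ranged from 1.79 without eWAT replicate 1 to 3.22 without eWAT replicate 2. Adra1b averaged 2.12 ± 0.292 CPM in BAT and 8.58 ± 3.68 CPM in eWAT, with a log2 fold change of -1.99 ± 0.51 (edgeR adjusted p = 0.0693). Adra1d had 0.25 ± 0.46 (edgeR adjusted p = 0.773), and its sign turned without BAT replicate 2 (-0.32) or eWAT replicate 2 (-0.09).

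Of the 5 tested receptor genes, 2 were called at an adjusted p below 0.05, where edgeR called 6.46% of all 11732 genes, and 4 of the 5 had libraries that did not overlap between BAT and eWAT, as did 55.2% of all genes. The median log2 fold change was 0.25 over the 5 genes and -0.03 over all genes. DESeq2 called the same 2 genes (11.7% of all genes). With no filter on low counts, edgeR called Adrb1 and Adra1b too. That fit called 1937 of 17699 genes (10.9%), with 1885 of them among the 11732. The authors' deposited table lists all 4 below 0.05, Adrb1 at 2.41 with an adjusted p of 6.82e-06 and Adra1b at -2.03 with 6.32e-05, where it lists 15.6% of its genes below 0.05. The calls depended on having all 6 libraries. Without BAT replicate 1 or 2, eWAT replicate 1 or 2, or iWAT replicate 1 or 2, neither gene passed: Adrb3 kept a log2 fold change from -1.01 to -0.86 (edgeR adjusted p from 0.0657 to 0.134) and Adra1a one from 1.67 to 2.09 (0.0539 to 0.122). Adrb3 and Adra1b were highest in eWAT, as were the macrophage marker sums given above. Those sums overlapped between BAT and iWAT. Both genes were lower in each iWAT library than in the BAT libraries, but edgeR called neither (adjusted p = 0.204 for Adrb3 and 0.188 for Adra1b). From eWAT replicate 1 to 2 the macrophage sum went from 4891 to 2183 CPM. Adra1b went from 11.2 to 5.97 CPM and Adrb3 from 154 to 172 CPM. Whether other cell types contributed to the receptor differences was not tested.

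BAT was also set against iWAT, the subcutaneous white depot. None of the 5 tested genes passed edgeR, although 4 of them (Adrb3, Adrb1, Adra1a and Adra1b) were higher in both BAT libraries than in either iWAT library. Of all genes, 23.9% were higher in this way and 48.0% did not overlap in either direction. For Adrb3 the log2 fold change was 0.54 ± 0.17 (edgeR adjusted p = 0.204), for Adrb1 1.54 ± 0.68 (0.33, and a log2 fold change of 0.88 to 2.80 with a library left out) and for Adra1a 0.49 ± 0.29 (0.453). Adra1b had 16 counts in BAT and 3 in iWAT, a pooled ratio of 5.91 (exact 95% binomial interval 1.69 to 31.6, counting error only; edgeR adjusted p = 0.188). Adra1d had 0.37 ± 0.46 (edgeR adjusted p = 0.745), and -0.19 without BAT replicate 2. Of the 5 genes, 2 had an unadjusted p below 0.05 by edgeR, as had 16.6% of all genes. At an adjusted p below 0.05, edgeR called 1.04% of all genes, DESeq2 4.35% and voom 0.588%, and none of these tools called any of the 5. In the authors' deposited table Adrb1 (1.52, adjusted p = 0.00482) and Adra1b (2.42, adjusted p = 0.0303) are below 0.05, as are 8.24% of its genes.

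Between the white depots, iWAT had less Adrb3 and Adra1b and more Adra1a than eWAT in every library, but edgeR called none of the 5 genes and 0% of all genes. Adrb3 averaged 58.6 ± 7.04 CPM in iWAT and 163 ± 12.3 CPM in eWAT (SD, n = 2 each), with a log2 fold change of -1.48 ± 0.17 (edgeR adjusted p = 0.0759). With 3 counts in iWAT and 69 in eWAT, Adra1b had a pooled ratio of 0.0417 (exact 95% binomial interval 0.00840 to 0.127, counting error only), or 24.0-fold less in iWAT (7.86 to 119), with an edgeR adjusted p of 0.098. Adra1a averaged 12.2 ± 2.29 CPM in iWAT and 4.67 ± 0.973 CPM in eWAT, with a log2 fold change of 1.37 ± 0.32 (edgeR adjusted p = 0.19). Adrb1 had 0.83 ± 0.79, which was -0.44 without iWAT replicate 1, and Adra1d -0.11 ± 0.46, which was 0.35 without eWAT replicate 1 (edgeR adjusted p = 0.945 and 0.996). By edgeR 3 of the 5, and 1096 of all 11732 genes, had an unadjusted p below 0.05, and libraries of these 3 did not overlap, as for 38.0% of all genes. DESeq2 called Adrb3 (adjusted p = 1.14e-06) and Adra1b (adjusted p = 0.0044), where it called 2.57% of all genes. With no filter edgeR also called both, beside 557 of 17699 genes (3.15%), with 543 of them among the 11732. Voom called neither and 1 gene in all. The authors' deposited table puts these 2 and Adra1a (1.34, adjusted p = 0.000406) below 0.05, beside 8.52% of its genes. The 3 comparisons share libraries, so they are not independent of each other.

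**Figure D2:**
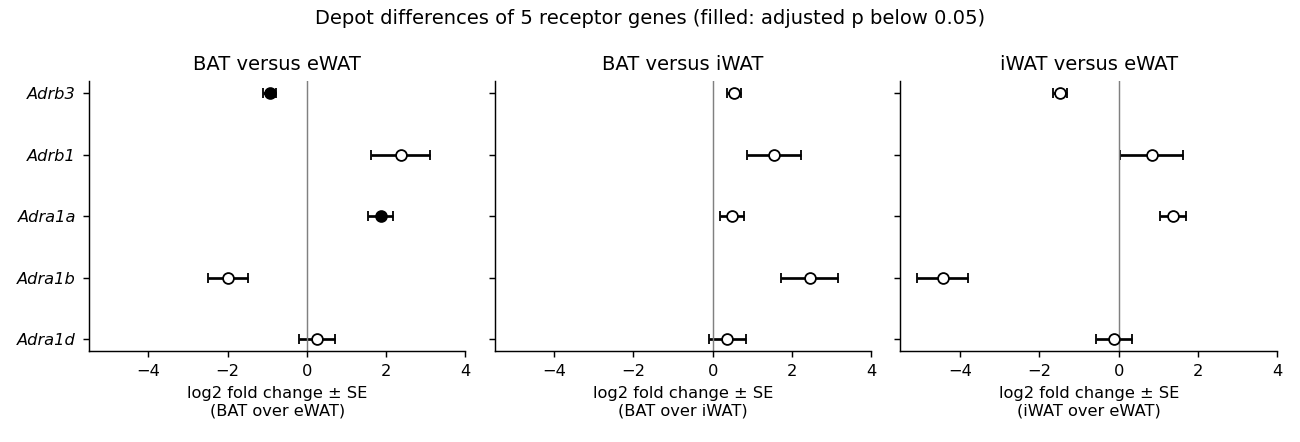
Log2 fold change with its SE (horizontal axis) of the 5 tested receptor genes in BAT over eWAT, BAT over iWAT and iWAT over eWAT, from 1 edgeR fit of 6 libraries. The filled points, with adjusted p below 0.05, are Adrb3 (-0.94) and Adra1a (1.86) in BAT over eWAT.

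**Figure D3:**
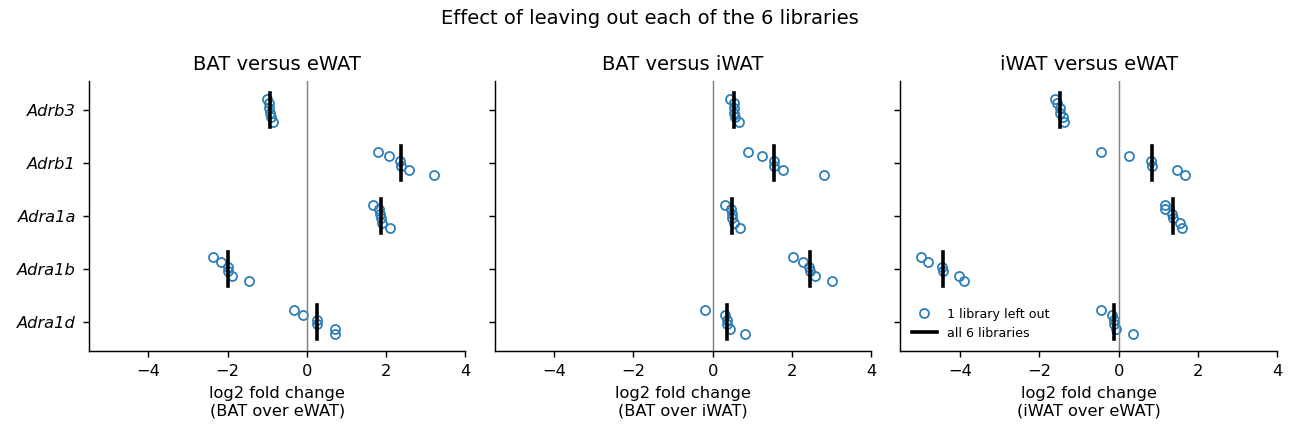
Log2 fold change (horizontal axis) of the same 5 genes with all 6 libraries (black line) and with each library left out in turn (open circles). Adrb3, Adra1a and Adra1b keep their sign in each comparison, while Adra1d crosses 0 in all 3 and Adrb1 crosses it in iWAT over eWAT.

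The balance of receptor classes was read from levels per kilobase of counted length, which can be compared between genes. The further beta gene is in neither the beta share, the ratio of classes nor the total, each of which could differ with it. The sum over the 8 genes was 45.2 and 47.6 CPM per kilobase in BAT, 29.2 and 32.8 in iWAT and 65.9 and 68.6 in eWAT. The beta genes Adrb1 and Adrb3 made up 75.9% and 71.1% of that sum in BAT, 72.3% and 70.9% in iWAT and 84.4% and 91.1% in eWAT. Both eWAT libraries were above those of the other depots, while BAT and iWAT overlapped. Alpha-1 genes held 23.3% and 28.9% in BAT, 26.2% and 28.5% in iWAT and 15.3% and 8.80% in eWAT, and alpha-2 genes at most 1.52% in any library. The ratio of beta to alpha-1 levels was 3.26 and 2.46 in BAT, 2.76 and 2.49 in iWAT and 5.50 and 10.3 in eWAT. No test was made on these shares, since the genes were chosen as a set.

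Within the beta class the depots differed more widely. The ratio of Adrb3 to Adrb1 levels per kilobase, which does not depend on library scaling, was 7.24 and 10.6 in BAT, 9.94 and 45.1 in iWAT and 148 and 59.8 in eWAT. BAT and iWAT overlapped, and both eWAT libraries lay above the rest. These ratios rest on 4 to 20 Adrb1 counts in each iWAT and eWAT library. In brown cultures, Adrb1 provided 9.21% and 6.13% of the pool, against 6.61% and 1.54% in iWAT and 0.567% and 1.50% in eWAT.

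Within the alpha-1 class the leading gene was Adra1a in BAT and iWAT and Adra1d in eWAT. The class total was 10.5 and 13.8 CPM per kilobase in BAT, 7.67 and 9.34 in iWAT and 10.1 and 6.04 in eWAT. Adra1a made up 65.7% and 52.9% of the alpha-1 level in BAT, 57.1% and 61.3% in iWAT and 21.9% and 27.3% in eWAT. Adra1b made up 6.58% and 4.14% in BAT, 0.934% and 1.60% in iWAT and 32.9% and 29.4% in eWAT. Adra1d made up 27.7% and 43.0% in BAT, 41.9% and 37.1% in iWAT and 45.2% and 43.3% in eWAT, so BAT and iWAT overlapped. The class total was above eWAT in both BAT libraries, by little for BAT replicate 1, although Adra1b lay the other way.

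Ranked by mean level per kilobase, the order in BAT was Adrb3 (30.5 ± 0.583), Adra1a (7.09 ± 0.262), Adra1d (4.41 ± 2.12), Adrb1 (3.54 ± 0.877), Adra1b (0.631 ± 0.0869) and Adra2a (0.195 ± 0.275). In iWAT it was Adrb3 (21.0 ± 2.52), Adra1a (5.05 ± 0.949), Adra1d (3.34 ± 0.177), Adrb1 (1.22 ± 1.01), Adra2a (0.321 ± 0.173) and Adra1b (0.111 ± 0.0552). In eWAT it was Adrb3 (58.4 ± 4.39), Adra1d (3.59 ± 1.39), Adra1b (2.55 ± 1.10), Adra1a (1.93 ± 0.403), Adrb1 (0.701 ± 0.462), Adra2a (0.0681 ± 0.00957) and Adra2b (0.0592 ± 0.0837), all in CPM per kilobase (SD, n = 2). Adra1d and Adrb1 overlapped in BAT, and their order differed between the BAT libraries. In eWAT the levels of Adra1b overlapped with those of both Adra1d and Adra1a. Each eWAT library still had the order Adra1d, Adra1b and Adra1a (4.57, 3.33 and 2.22 in replicate 1, and 2.61, 1.78 and 1.65 in replicate 2). Adra1d and Adra1a did not overlap in eWAT, where Adra1d was above Adra1a, the reverse of their order in BAT and iWAT.

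**Figure D4:**
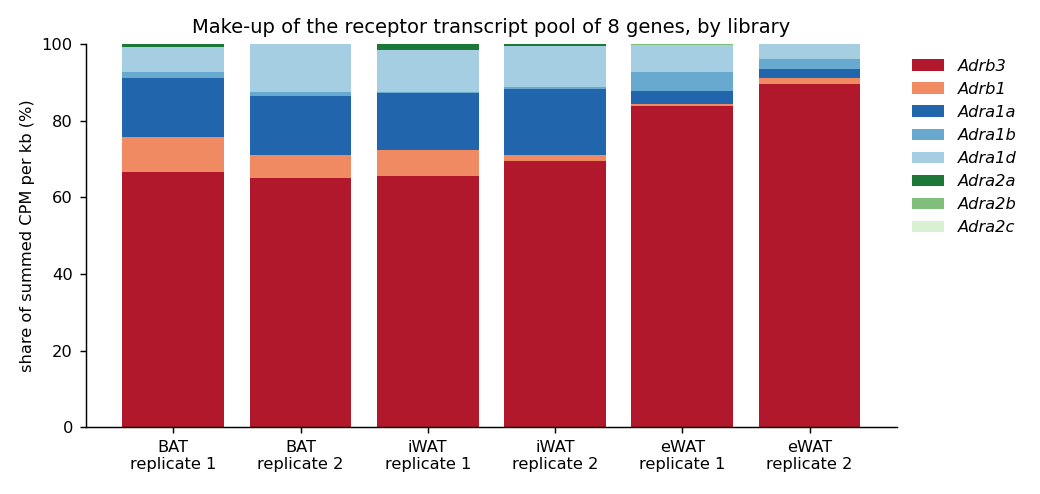
Share of the summed CPM per kilobase (vertical axis, percent) that each of the 8 receptor genes held in each library of BAT, iWAT and eWAT. Adrb3 takes from 65.0% to 69.4% in BAT and iWAT and 83.8% and 89.6% in eWAT, and the blue alpha-1 part is widest in BAT and iWAT.

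Genes of receptor signalling, lipolysis, catecholamine handling and other adipocyte receptors were examined in 7 lists. Those of catecholamine handling and of other receptors, among them Ffar2 and Adora2b, are not downstream of the adrenergic receptors. Of their 74 tested genes, edgeR called 10 (13.5%) between BAT and eWAT, 1 between BAT and iWAT and 0 between iWAT and eWAT, beside 6.46%, 1.04% and 0% of all genes. By direction, edgeR called 2.71% of all genes up and 3.75% down in BAT relative to eWAT, and 0.145% higher in BAT than in iWAT. In the same order, 26 (35.1%), 13 (17.6%) and 14 (18.9%) of the 74 had an unadjusted p below 0.05, beside 25.9%, 16.6% and 9.34% of all genes. DESeq2 called 13 (17.6%), 6 (8.11%) and 4 (5.41%), beside 11.7%, 4.35% and 2.57%, and voom called 4 (5.41%), 0 and 0, beside 4.74%, 0.588% and 0.00852%. No statement about the lists as a whole was tested.

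Among 20 tested genes of G proteins, adenylyl cyclases and protein kinase A, 2 fell and 0 rose in BAT relative to eWAT (median log2 fold change -0.15). The adenylyl cyclase gene Adcy5 had 76.5 and 82.6 CPM in BAT and 152 and 161 CPM in eWAT, a log2 fold change of -0.98 ± 0.16 (edgeR adjusted p = 0.0313), close in size to that of Adrb3. Adcy7, a further cyclase gene, had 21.8 and 9.94 CPM in BAT and 66.6 and 46.9 CPM in eWAT (-1.80 ± 0.38, edgeR adjusted p = 0.0467). The Gs gene Gnas averaged 1033 CPM in BAT and 433 CPM in eWAT without passing (1.25 ± 0.37, edgeR adjusted p = 0.0943). Of 8 tested cAMP phosphodiesterase genes, which end the signal, 1 rose and 0 fell. This was Pde4d, with 117 and 194 CPM in BAT and 22.8 and 38.7 CPM in eWAT (2.34 ± 0.35, edgeR adjusted p = 0.0273).

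Receptor kinases and arrestins switch off activated receptors, and RGS proteins speed the shut-off of G proteins. Of 12 such genes, 1 rose and 1 fell in BAT relative to eWAT, and 1 rose relative to iWAT. Adrbk2, the gene of the receptor kinase GRK3, had 17.8 and 30.6 CPM in BAT, 4.09 and 2.77 CPM in iWAT and 5.59 and 3.98 CPM in eWAT. It rose in BAT by 2.31 ± 0.41 over eWAT (edgeR adjusted p = 0.0354) and by 2.79 ± 0.43 over iWAT (edgeR adjusted p = 0.0497). The beta-arrestin gene Arrb2 had 6.97 and 6.88 CPM in BAT and 33.1 and 17.6 CPM in eWAT (-1.87 ± 0.37, edgeR adjusted p = 0.0414).

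In the phospholipase C arm, used by alpha-1 receptors, 1 of 11 genes rose and 1 fell in BAT relative to eWAT. Itpr2, which encodes a calcium release channel gated by inositol trisphosphate, had 138 and 276 CPM in BAT and 46.8 and 52.3 CPM in eWAT (2.06 ± 0.36, edgeR adjusted p = 0.0332). Prkcb, a protein kinase C gene also expressed in macrophages, had 1.69 and 0.382 CPM in BAT and 33.1 and 14.2 CPM in eWAT (-4.30 ± 0.69, edgeR adjusted p = 0.0303). Among 10 tested genes of other adipocyte receptors coupled to Gs or Gi, 2 fell: the free fatty acid receptor gene Ffar2 (-2.32 ± 0.41, edgeR adjusted p = 0.0353) and the adenosine receptor gene Adora2b (-4.09 ± 0.78, edgeR adjusted p = 0.0388).

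Of 7 lipolysis genes, 1 rose, the lipid droplet gene Plin5, with 231 and 289 CPM in BAT and 108 and 112 CPM in eWAT (1.24 ± 0.18, edgeR adjusted p = 0.0247). Hormone-sensitive lipase, encoded by Lipe, averaged 930 CPM in BAT and 990.4 CPM in eWAT (edgeR adjusted p = 0.883). No gene of catecholamine synthesis, transport and breakdown passed in BAT against eWAT, and 6 of 14 were tested. Transcripts of catecholamine synthesis were few: Th had 3 counts over all libraries, Dbh 2 and Pnmt 0. The breakdown enzyme gene Maoa averaged 68.8 CPM in BAT and 125 CPM in eWAT (edgeR adjusted p = 0.0880).

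These calls between BAT and eWAT also rested on the full set of libraries. Of the 10 genes, 6 were still called without BAT replicate 1, 0 without BAT replicate 2, 0 without eWAT replicate 1, 1 (Prkcb) without eWAT replicate 2, and 1 (Ffar2) without iWAT replicate 1 or 2. Their signs held throughout, with Prkcb from -5.84 to -3.57, Adora2b from -5.10 to -3.07, Adcy7 from -2.51 to -1.39, Arrb2 from -2.25 to -1.34, Itpr2 from 1.48 to 2.48 and Adrbk2 from 1.87 to 2.66. The rise of Adrbk2 over iWAT was not called without any one of the 6 libraries (2.37 to 3.14). Of the 6 genes lower in BAT, Adcy7 (18.3 and 15.8 CPM), Arrb2 (8.18 and 8.80 CPM), Prkcb (3.85 and 2.51 CPM) and Adora2b (10.6 and 5.03 CPM) had iWAT means nearer to BAT than to eWAT in CPM, as had the macrophage marker sums. Adcy5 (125 and 143 CPM) and Ffar2 (28.6 and 61.1 CPM) had iWAT means nearer to eWAT, as had the preadipocyte and fibroblast marker sums. The part of other cells in these differences was not tested.

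**Figure D5:**
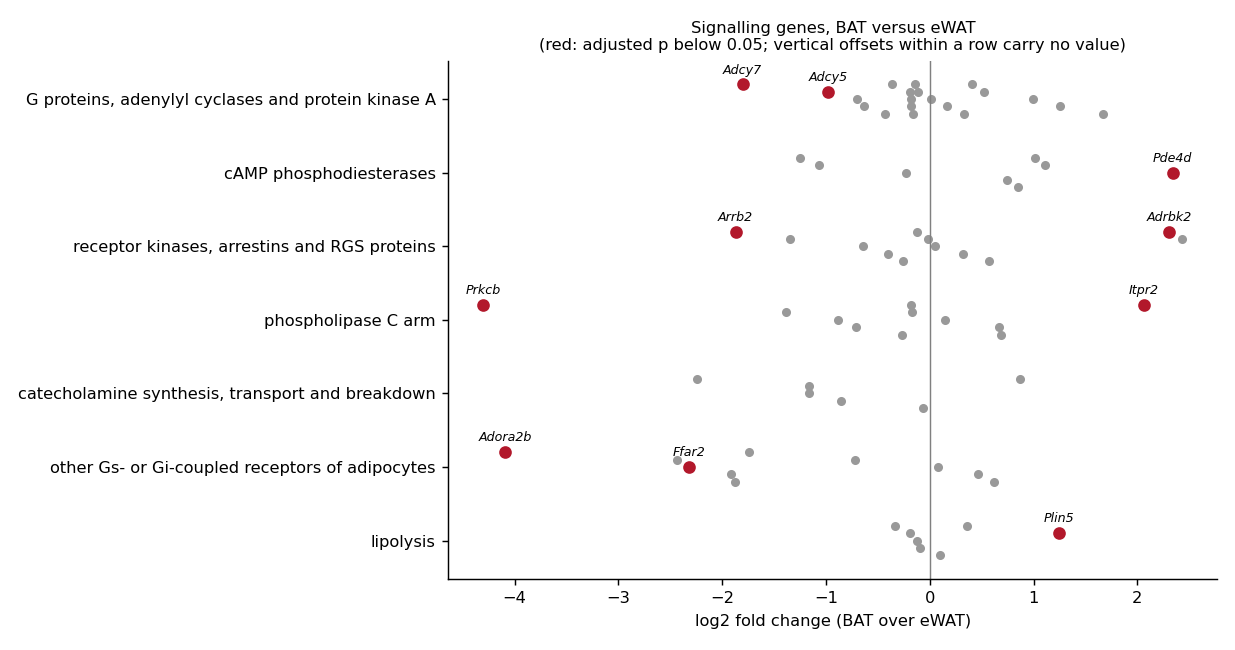
Log2 fold change of BAT over eWAT (horizontal axis) for the 74 tested genes of the 7 lists, 1 point per gene. The 10 named red points passed at an adjusted p below 0.05, 4 to the right of 0 and 6 to the left.

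For the 3 receptor genes with a mean of at least 5 CPM, the genes whose levels were most like theirs over the 6 libraries were listed by Pearson correlation of log2 CPM, as a description. The matches were the highest r among all tested genes, with no minimum level set for them, so a high r partly follows from that choice. Adrb3 was closest to Rbm46 (r = 0.991), Col4a5 (0.983), a basement membrane collagen gene, and Gpm6a (0.974). Gpm6a was low, with means of 0.785 CPM in BAT, 0 CPM in iWAT and 3.39 CPM in eWAT. Col4a5 averaged 104 ± 4.40 CPM in BAT, 60.7 ± 5.20 CPM in iWAT and 183 ± 8.17 CPM in eWAT. Adra1a was closest to Popdc3 (r = 0.997), Polr2j (0.996) and Ube2j1 (0.993), and Popdc3 averaged 13.4 ± 0.469 CPM in BAT, 6.41 ± 1.24 CPM in iWAT and 0.867 ± 0.421 CPM in eWAT (SD, n = 2 each). For Adra1d the closest were Wdr13 (0.981), Jak3 (0.961) and Hlx (0.961). Among the 5 tested receptor genes, taken with no minimum level, Adrb3 and Adra1b were the most alike pair (r = 0.959) and Adrb3 and Adra1a the least (r = -0.77). Adra1b is below the 5 CPM limit and had only 1 and 2 counts in the iWAT libraries. The 6 libraries are grouped by depot and differ in depth.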

How the data were processed

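RNA was measured by sequencing in 6 libraries, 2 each from BAT, iWAT and eWAT cultures. Per the labels, TRIzol was used for RNA extraction, ribosomal RNA was removed with Ribo-Zero, and libraries were of the TruSeq kind. Reads were aligned with STAR to mm9, per the submitters' processing notes. Neither the counting program nor strandedness is stated there. The authors' count table holds whole read counts per gene, not normalized per the file headers, with the counted length. A table of the authors' own tests holds deposited log2 fold changes and values, p-values, and a likelihood ratio score.

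Genes with few counts were left out (filterByExpr), keeping 11732 of 20295, and CPM used TMM-scaled totals of these. Tests were edgeR quasi-likelihood F tests, two-sided, on 1 fit of 6 libraries with depot as the only term, adjusted by Benjamini-Hochberg over all tested genes and called below 0.05. Standard errors are the log2 fold change over the square root of F. Versions were R 4.3.3, edgeR 4.0.16, limma 3.58.1, DESeq2 1.42.0, Python 3.11.15, scipy 1.17.1 and matplotlib 3.10.9. The edgeR fit was tested on simulated data. Replicates differed beyond sampling noise (chi-square per degree of freedom 16.0 to 19.8). Alternatives were other size factors, no filter, DESeq2, limma voom, only the libraries compared, a replicate block and leaving out each library. Named genes are all 8 receptor genes, up to 4 called genes per list by smallest adjusted p, and the 3 genes most like each receptor gene. Gnas, Lipe, Maoa and the catecholamine synthesis genes were named after their values were seen. Members and lists were chosen with earlier results of these data known.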

Additional observations from a re-analysis of the deposited data

How the results depend on the processing

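Adrb3, Adra1a and Adra1b kept their sign in every comparison under all 12 alternatives. The 5 values that reversed were those of Adra1d in BAT versus eWAT without BAT replicate 2 (-0.32) and without eWAT replicate 2 (-0.09), in BAT versus iWAT without BAT replicate 2 (-0.19) and in iWAT versus eWAT without eWAT replicate 1 (0.35), and of Adrb1 in iWAT versus eWAT without iWAT replicate 1 (-0.44). None of these had passed. With a library left out, Adra1d ran from -0.32 to 0.72 in BAT versus eWAT, from -0.19 to 0.82 in BAT versus iWAT and from -0.45 to 0.35 in iWAT versus eWAT, and Adrb1 from -0.44 to 1.68 in iWAT versus eWAT.

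For BAT versus eWAT, 2 receptor genes and 758 genes in all were called. With no filter these were 4 and 1937, and with only the 4 libraries compared 0 and 154. DESeq2 called 1370 genes in all, and with a library left out the receptor count was 0 to 0 and the count of all genes 2 to 820. For BAT versus iWAT, 0 receptor genes and 122 genes in all were called, 780 in all with no filter, 510 with DESeq2, 69 with voom and 0 to 94 with a library left out. For iWAT versus eWAT, 0 and 0 were called. No filter gave 2 and 557, DESeq2 2 and 301, voom 1 gene in all, the 4 libraries alone 2, and leaving out a library 0 to 3. The cause was not tested.

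Replicate numbers are shared between depots, but the labels do not say that they mark a batch, so the block is given only here. Deviations of replicate 1 correlated across genes between depots at 0.41 to 0.56. With the replicate block, 4, 1 and 2 receptor genes were called in BAT versus eWAT, BAT versus iWAT and iWAT versus eWAT, and 2780, 1225 and 563 genes in all. The calls gained were Adrb1 (edgeR adjusted p = 0.0393) and Adra1b (0.0178) in BAT versus eWAT, Adrb3 (0.0495) in BAT versus iWAT, and Adrb3 (0.0026) and Adra1b (0.00844) in iWAT versus eWAT.

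Read from counts in place of per-length levels, the beta share in iWAT was 73.9%, against 71.6 ± 0.942% per length (SD, n = 2). With a library left out, the share is that of the depot's other library, so this adds no separate check. Those shares were 71.1% and 75.9% in BAT, 70.9% and 72.3% in iWAT and 84.4% and 91.1% in eWAT. At 2 libraries a depot, and with under 20 counts for Adrb1, Adra1b and the alpha-2 genes in several libraries, depth limits what these data can separate.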
